A study of Mus musculus with 24 samples.

Results

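The alpha-arrestins are adaptor proteins, and the data here describe the RNA of 5 of their genes in the corpus callosum of the mouse, a tract of myelinated axons between the hemispheres: Arrdc1, Arrdc2, Arrdc3, Arrdc4 and Txnip. They are 5 of the 54446 genes in the deposited table, and all 5 passed the filter on low values, together with 15211 other genes. The genes were chosen by name, and the choice was made with earlier results of these data in view, so their FPKM over the 4 groups, which the rule names, is a description. The adjusted p-values beside them are those that a fit over the whole table gave these rows, they place a difference among all genes, and nothing is supported with them. The sixth gene of the family, Arrdc5, was not on the list and was at 0 in all 24 libraries.

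An alpha-arrestin holds a pair of arrestin folds and a tail with PPxY motifs, which bind the WW domains of NEDD4-family ubiquitin ligases. Through that contact the family brings ligases to receptors and transporters at the membrane, which are then ubiquitinated and taken up into the cell. Txnip, the best known member, also binds thioredoxin and drives the glucose transporter Slc2a1 (GLUT1) off the cell surface, and its own gene is switched on by glucose through the Mondo and ChREBP transcription factors.

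Libraries of polyadenylated RNA were compared over 4 groups: cuprizone BTKi (n = 8), cuprizone vehicle (n = 8), naive BTKi (n = 4) and naive vehicle (n = 4). Cuprizone is a copper chelator that kills oligodendrocytes, the myelin-making cells, when it is fed to mice, and BTKi is an inhibitor of Bruton's tyrosine kinase, an enzyme of B cells and of myeloid cells, microglia included. Naive mice had no cuprizone, and both drug groups are set against a vehicle group of the same state. No source used here gives the compound, its dose, how long each treatment ran, or the strain, age and sex of the mice. Nor do the labels tie each library to an animal of its own, so the spread behind every p-value is that between libraries and may be technical in part.

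The low values of the deposited table imply 26500000 to 31000000 fragments per library, with cuprizone BTKi 5 the lowest and the next at 29800000. Markers were set beside the tissue label, and all 10 markers of mature oligodendrocytes were above the filter, as were markers of neighbouring regions. Passing the filter cannot tell the tract from other brain tissue. Over all libraries the 7 general neuron markers summed to 1850 to 2280 FPKM and the oligodendrocyte markers to 1110 to 4910 FPKM. Naive vehicle 2 had the highest summed level of 8 striatal neuron markers (672 FPKM, the other libraries 121 to 384 FPKM) and of oligodendrocyte markers (4910 FPKM). Cuprizone vehicle 1, 4 and 7 were poor in 7 choroid plexus markers (123, 30.1 and 36.0 FPKM summed). Results that moved without these 4 libraries are given with that value. In bulk tissue, fewer cells of a type and less RNA per cell cannot be told apart.

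Levels are FPKM, a gene's fragments divided by its length and by the total of its library. Differences are on the scale log2(FPKM + 0.5), fitted with limma for 15216 genes and called at a Benjamini-Hochberg adjusted p under 0.05 over all of them. Over the 24 libraries Arrdc3 averaged 9.29 FPKM, Txnip 8.49, Arrdc1 5.61, Arrdc2 5.52 and Arrdc4 2.65. Each member's reads were estimated from its FPKM, exon length and the depth, and the thinnest, Arrdc4, had about 230 to 427 fragments per library, while Arrdc3 had about 1265 to 2876.

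**Figure D1:**
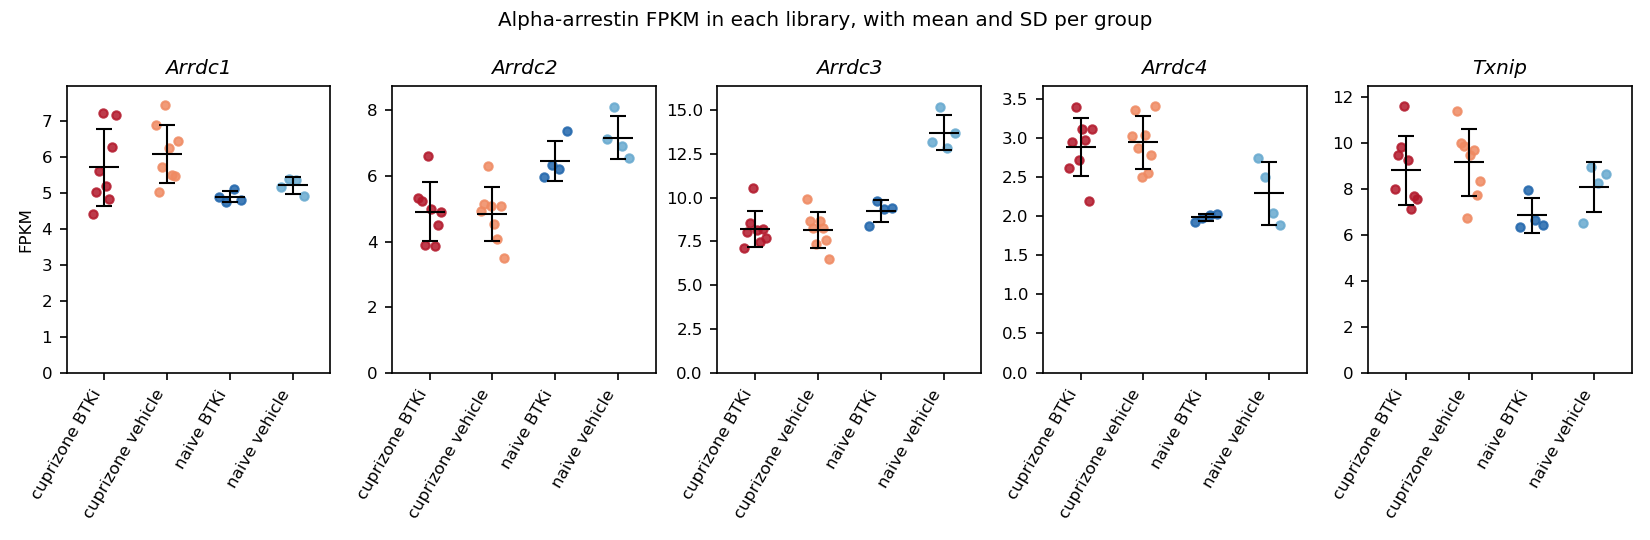
FPKM of each of the 5 genes (y axis, linear, from 0) in every library, 1 point each, with horizontal bars for the group mean and error bars for the SD, for cuprizone BTKi (n = 8), cuprizone vehicle (n = 8), naive BTKi (n = 4) and naive vehicle (n = 4). The 4 naive vehicle libraries stand apart for Arrdc3, at 12.9 to 15.2 FPKM, and the 4 naive BTKi libraries lie close together for Arrdc4, at 1.93 to 2.03 FPKM.

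Arrdc3 and Arrdc2 were lower and Arrdc4 higher in cuprizone than in naive mice under vehicle. That made 3 of the 5 genes called, 1 higher and 2 lower, where 15.0% of all genes were called, 10.2% higher and 4.82% lower. Arrdc2 and Arrdc3 were the 2 members whose groups did not overlap, both lower, against 8.77% of all genes without overlap and 2.85% without overlap and lower. Under BTKi, 2 of the 5 were called for cuprizone against naive mice, Arrdc4 higher and Arrdc2 lower, against 7.87% of all genes, 6.11% higher and 1.77% lower. Arrdc4 was the 1 member without overlap there, higher, against 7.17% of all genes and 5.7% higher. Txnip and Arrdc1 were not called in any comparison.

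For BTKi against vehicle in cuprizone mice, 0 of the 5 were called by limma or without overlap, where 0.177% of all genes were called and 0.131% did not overlap, and 0 of the 5 had an unadjusted p under 0.05. In naive mice 1 of the 5 was called, Arrdc3, which was lower and without overlap. Of all genes 0.217% were called there, 0.112% lower, and 7.36% did not overlap, 4.93% lower. For the difference of the BTKi effects 0 of the 5 were called by limma, against 0.125% of all genes, and Arrdc3 was the 1 member with an unadjusted p under 0.05. Nothing is read from these shares, since the genes were proposed with such results known.

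The median difference of the 5 for cuprizone against naive mice was 0.16 under vehicle and 0.19 under BTKi, where the median over all tested genes was 0.03 and 0.02. For BTKi against vehicle it was -0.03 in cuprizone mice and -0.16 in naive mice, where the median over all tested genes was -0.02 in both. The split of called genes moved with the scaling, from 1555 higher and 733 lower under vehicle to 1241 and 961 after median ratio scaling and 1205 and 1072 after quantile normalization. Under BTKi the split was 929 higher and 269 lower, against 768 and 415 or 724 and 395 with these scalings.

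Arrdc3 encodes an adaptor that in human cells binds NEDD4-family ligases and the beta-2 adrenergic receptor, and mice without it resist obesity. The gene (ENSMUSG00000074794.10) is protein-coding, as are the other 4, and spans chromosome 13, 80883384 to 80896042, plus strand (GENCODE M21, GRCm38). It had 7.12, 8.09 and 10.5 FPKM (lowest, median and highest) in cuprizone BTKi and 6.52, 8.25 and 9.94 FPKM in cuprizone vehicle. In naive BTKi the 4 libraries held 8.39, 9.82, 9.35 and 9.40 FPKM, and in naive vehicle 13.2, 15.2, 12.9 and 13.7 FPKM. Every naive vehicle library lay above every library of the other 3 groups, and those 3 overlapped each other.

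Under vehicle, Arrdc3 averaged 8.16 ± 1.03 FPKM in cuprizone mice (SD, n = 8) and 13.7 ± 1.02 FPKM in naive mice (SD, n = 4). It fell by 0.72 on the log2 scale (SE 0.09, limma adjusted p = 1.75e-06), about 39.4% lower. Arrdc3 held rank 112 by p among the 15216 genes, and the call held in all 24 fits without 1 library, with adjusted p up to 2.78e-05.

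In naive mice Arrdc3 averaged 9.24 ± 0.605 FPKM under BTKi and 13.7 ± 1.02 FPKM under vehicle (SD, n = 4 each), and it fell by 0.55 (SE 0.10, limma adjusted p = 0.0166). That placed it at rank 11 of the 15216 genes, and the 4 BTKi libraries were all below the 4 vehicle libraries. The call is near its threshold: it was lost without naive BTKi 1 (adjusted p = 0.0612), 3 (0.0633) or 4 (0.0648) or naive vehicle 2 (0.0628), and without the 4 libraries named above (0.0591), while the difference stayed between -0.57 and -0.50. The summed level of the 10 oligodendrocyte markers was 3030 to 3100 FPKM in naive BTKi and 3500 to 4910 FPKM in naive vehicle, none of the 10 was called and none was at 0. Their median difference was -0.32, and it was -0.48 for striatal neuron, -0.39 for choroid plexus and -0.34 for ependymal markers. Every marker of these lists was lower and none was called. The median was 0.26 for red blood cell markers and from -0.06 to 0.06 for the other marker lists. The part of any of these cells in the Arrdc3 difference was not tested.

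In cuprizone mice Arrdc3 averaged 8.22 ± 1.04 FPKM under BTKi and 8.16 ± 1.03 FPKM under vehicle (SD, n = 8 each), a difference of 0.01 (SE 0.07, 95% interval -0.13 to 0.16, limma adjusted p = 0.985). The BTKi difference was thus -0.55 in naive mice and 0.01 in cuprizone mice. The gap between these 2 differences was 0.56 (SE 0.12, 95% interval 0.30 to 0.81), with an unadjusted p = 0.000128 from limma and rank 24. It was not called over all genes (limma adjusted p = 0.0814), though it was without cuprizone vehicle 1 (0.0331), and it reached 0.212 without naive vehicle 2. Under BTKi, Arrdc3 averaged 8.22 FPKM in cuprizone mice and 9.24 FPKM in naive mice, a difference of -0.17 (SE 0.09, limma adjusted p = 0.318). The comparisons share groups, so the cuprizone difference under vehicle and the BTKi difference in naive mice rest on the same 4 naive vehicle libraries.

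Arrdc2 is a less studied adaptor of the same build. The gene (ENSMUSG00000002910.11) spans chromosome 8, 70835129 to 70839720, minus strand. It had 3.86, 4.94 and 6.62 FPKM (lowest, median and highest) in cuprizone BTKi and 3.51, 5.00 and 6.31 FPKM in cuprizone vehicle. In naive BTKi it had 5.98, 6.33, 6.20 and 7.36 FPKM, and in naive vehicle 7.13, 8.10, 6.91 and 6.55 FPKM. Both cuprizone groups were low and overlapped each other, and both naive groups were high and overlapped each other. Cuprizone BTKi 4 (6.62 FPKM) and cuprizone vehicle 3 (6.31 FPKM) reached into the naive BTKi range, and cuprizone BTKi 4 also lay above the lowest naive vehicle library (6.55 FPKM).

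Under vehicle, Arrdc2 averaged 4.83 ± 0.828 FPKM in cuprizone mice (SD, n = 8) and 7.17 ± 0.662 FPKM in naive mice (SD, n = 4), and it fell by 0.54 (SE 0.12, limma adjusted p = 0.00204). The call held in every fit without 1 library, with adjusted p up to 0.0137. Under BTKi, Arrdc2 averaged 4.92 ± 0.888 FPKM in cuprizone mice and 6.47 ± 0.613 FPKM in naive mice, and it fell by 0.38 (SE 0.12, limma adjusted p = 0.0468). This second call sat at the threshold and was lost in 18 of the 24 fits without 1 library, with adjusted p from 0.0109 to 0.182, the highest without naive BTKi 4. It was also lost without the filter on low values (0.107) and without the 4 libraries that stand apart (0.059). Those 4 libraries are in neither of the groups compared, and some of the 18 fits also left out a vehicle library. In these fits the difference stayed at -0.38, and only the shared spread and the adjustment over all genes could move. BTKi gave Arrdc2 a difference of 0.02 in cuprizone mice (95% interval -0.17 to 0.22) and -0.14 in naive mice (95% interval -0.42 to 0.14), neither of them called.

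Markers of oligodendrocytes, the cells that cuprizone kills, fell in both comparisons of cuprizone with naive mice. Arrdc2 differed by -0.54 under vehicle and -0.38 under BTKi, and Arrdc3 by -0.72 and -0.17, the last of these not called. All 10 mature oligodendrocyte markers fell under vehicle, with summed levels of 1110 to 1820 FPKM in cuprizone mice and 3500 to 4910 FPKM in naive mice. All 10 also fell under BTKi, with 1240 to 2660 FPKM in cuprizone mice and 3030 to 3100 FPKM in naive mice. All 8 striatal neuron markers fell under vehicle too (129 to 238 FPKM summed in cuprizone mice, 231 to 672 FPKM in naive mice). No marker of either list was at 0. Over the 24 libraries, with each group's mean subtracted, the oligodendrocyte score had a Pearson r of 0.60 with Arrdc2, 0.51 with Arrdc3, 0.43 with Txnip, -0.22 with Arrdc4 and 0.01 with Arrdc1. The part of these cells in the differences of Arrdc2 and Arrdc3 was not tested.

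Arrdc4 is an adaptor whose gene, like Txnip, is induced by glucose through Mondo factors, and whose protein has been found to promote the release of extracellular vesicles. The gene (ENSMUSG00000042659.15) spans chromosome 7, 68736995 to 68749241, minus strand. It had 2.19, 2.96 and 3.39 FPKM (lowest, median and highest) in cuprizone BTKi and 2.50, 2.95 and 3.41 FPKM in cuprizone vehicle. In naive BTKi it had 1.93, 1.97, 2.01 and 2.03 FPKM, and in naive vehicle 2.74, 2.50, 2.04 and 1.88 FPKM. Every cuprizone BTKi library lay above every naive BTKi library, whereas naive vehicle was spread over a range that reached into the cuprizone vehicle one.

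Under BTKi, Arrdc4 averaged 2.88 ± 0.370 FPKM in cuprizone mice (SD, n = 8) and 1.99 ± 0.0465 FPKM in naive mice (SD, n = 4), and it rose by 0.43 (SE 0.09, limma adjusted p = 0.00261). The call held in all 24 fits without 1 library, with adjusted p up to 0.0119. Under vehicle, Arrdc4 averaged 2.94 ± 0.334 FPKM in cuprizone mice and 2.29 ± 0.399 FPKM in naive mice, and it rose by 0.31 (SE 0.09, limma adjusted p = 0.0233). The rise under vehicle was no longer called without naive vehicle 3 (adjusted p = 0.0873) or 4 (0.13), after quantile normalization (0.0537) or with only these 2 groups in the fit (0.0559). BTKi gave Arrdc4 a difference of -0.03 in cuprizone mice (95% interval -0.18 to 0.13) and -0.16 in naive mice (95% interval -0.37 to 0.06), neither of them called.

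Most microglial and astrocyte markers rose in the comparisons of cuprizone with naive mice, in which Arrdc4 rose. Of 9 microglial markers, 7 rose in each comparison of cuprizone with naive mice, with summed levels of 260 to 709 FPKM in cuprizone vehicle and 158 to 191 FPKM in naive vehicle, and of 278 to 536 FPKM in cuprizone BTKi and 164 to 186 FPKM in naive BTKi. Of 7 astrocyte markers, 4 rose and 1 fell under vehicle, and 4 rose under BTKi. No marker of these lists was at 0. Within groups the microglial score had a Pearson r of 0.38 with Arrdc4 and the astrocyte score one of 0.33. Oligodendrocyte precursor markers (0.38) and striatal neuron markers (0.36) had similar values with Arrdc4, and the microglial score had one of 0.36 with Arrdc1. The part of microglia and astrocytes in the rise of Arrdc4 was not tested.

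Txnip encodes the thioredoxin-interacting protein. The gene (ENSMUSG00000038393.14) spans chromosome 3, 96557957 to 96561883, plus strand. It had 7.11, 8.65 and 11.6 FPKM (lowest, median and highest) in cuprizone BTKi and 6.73, 9.58 and 11.4 FPKM in cuprizone vehicle. In naive BTKi it had 6.36, 7.97, 6.67 and 6.42 FPKM, and in naive vehicle 6.50, 8.96, 8.27 and 8.65 FPKM. The 4 ranges overlapped, and all 8 cuprizone BTKi libraries lay above the naive BTKi median.

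Txnip was not called in any comparison. Under BTKi it averaged 8.82 ± 1.51 FPKM in cuprizone mice and 6.85 ± 0.755 FPKM in naive mice (SD, n = 8 and 4), a difference of 0.33 (SE 0.12, 95% interval 0.08 to 0.58, limma adjusted p = 0.103). That difference was called without the 4 libraries named above (adjusted p = 0.0464) and with the choroid plexus score as a covariate (0.0429). The 4 libraries are in neither of the groups compared. Without them the difference was again 0.33, and the SE, which rests on the spread of all groups, was 0.1. Under vehicle it averaged 9.16 ± 1.47 FPKM in cuprizone mice and 8.10 ± 1.10 FPKM in naive mice, a difference of 0.16 (SE 0.12, limma adjusted p = 0.408). BTKi gave Txnip differences of -0.05 in cuprizone mice (95% interval -0.25 to 0.15) and -0.22 in naive mice (95% interval -0.51 to 0.07).

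Arrdc1 recruits Tsg101 of the ESCRT machinery to the plasma membrane, where vesicles bud that carry Arrdc1 itself. The gene (ENSMUSG00000026972.15) spans chromosome 2, 24925352 to 24935252, minus strand. It had 4.40, 5.38 and 7.20 FPKM (lowest, median and highest) in cuprizone BTKi and 5.02, 5.96 and 7.43 FPKM in cuprizone vehicle. In naive BTKi it had 4.89, 4.75, 5.09 and 4.80 FPKM, and in naive vehicle 5.15, 5.38, 5.36 and 4.90 FPKM. The naive libraries lay close together and the cuprizone libraries were spread, with 7 of the 8 cuprizone vehicle libraries above all 4 naive vehicle ones and 5 of the 8 cuprizone BTKi libraries above all 4 naive BTKi ones. The cuprizone differences of Arrdc1 were 0.20 under vehicle (SE 0.10, limma adjusted p = 0.22) and 0.19 under BTKi (SE 0.10, limma adjusted p = 0.357), and neither was called.

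**Figure D2:**
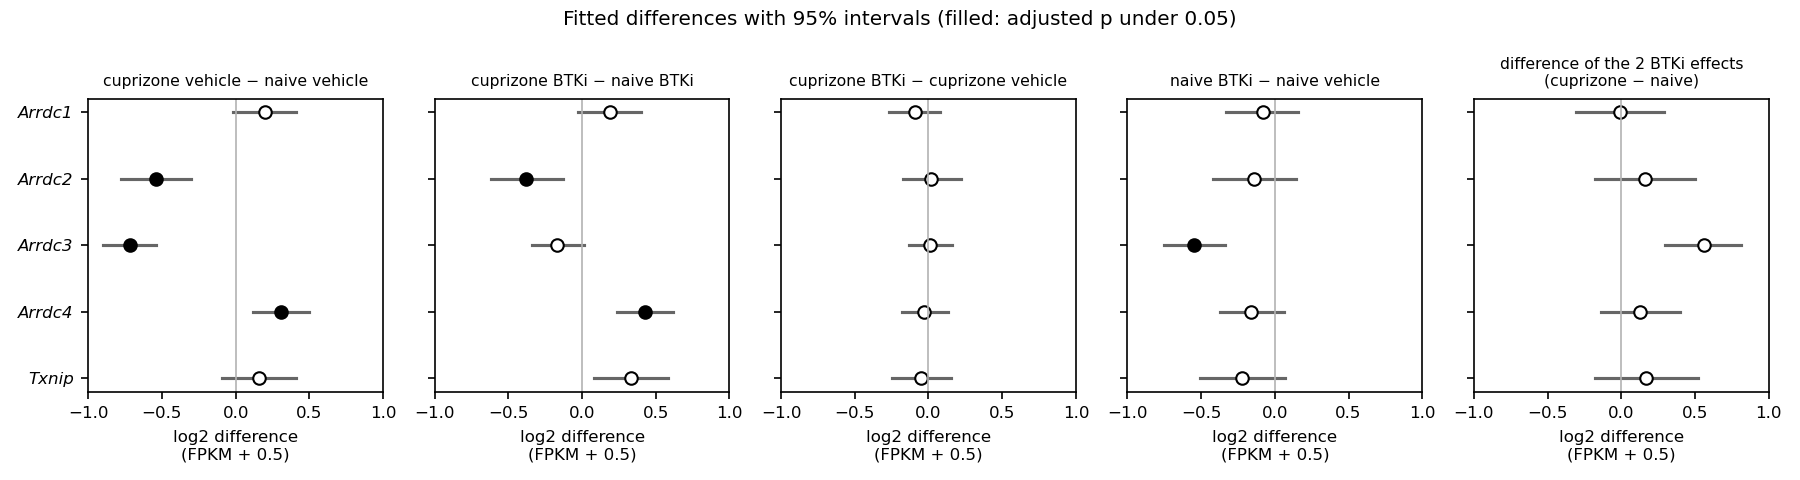
Log2 differences of FPKM + 0.5 (x axis) of the 5 genes (rows) in each comparison (panels), with 95% intervals from limma as bars, where a filled point has an adjusted p under 0.05 over all 15216 genes. Under vehicle Arrdc3 lies at -0.72 and Arrdc2 at -0.54, in cuprizone mice given BTKi or vehicle all 5 lie between -0.09 and 0.02, and the naive BTKi panel has 1 filled point, Arrdc3 at -0.55.

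Arrdc3 and Txnip varied together from library to library. With each group's mean subtracted, their log2 values had a Pearson r of 0.77 and a Spearman rho of 0.80 over 24 libraries. Permuting libraries within groups gave p = 0.00011 for r (adjusted p = 0.0011 over the 10 pairs of members) and p = 1e-05 for rho, the smallest that the permutations can give (adjusted p = 1e-04). The members and the tests were chosen with earlier results of these data known, so these p-values are a description too, and nothing is supported with them. Without the 2 libraries farthest from the median of Arrdc3, r was again 0.77. As a description of the same libraries by group, r was 0.83 and rho 0.71 within the 8 cuprizone BTKi libraries, and r was 0.78 and rho 0.86 within the 8 cuprizone vehicle libraries. The naive groups hold too few libraries for a correlation of their own.

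For the other 9 pairs the permutation tests gave adjusted p from 0.195 to 0.922 for r, again as a description only. Arrdc4 and Txnip, both known as glucose-induced genes, had r = 0.10 and rho = 0.10 (adjusted p = 0.887 and 0.961). The r of Arrdc2 and Arrdc3 was 0.49 but 0.10 without the 2 libraries farthest from the median of Arrdc2. Ependymal markers (5 genes, none at 0, summed levels 11.8 to 45.2 FPKM over all libraries) had a Pearson r within groups of 0.68 with Txnip and 0.46 with Arrdc3, and choroid plexus markers one of 0.45 with Txnip and 0.14 with Arrdc3. It was 0.48 with Txnip and 0.50 with Arrdc3 for 6 mural cell markers, 0.46 and 0.21 for striatal neuron markers, and 0.43 and 0.51 for oligodendrocyte markers, and from -0.10 to 0.36 with Txnip and from -0.26 to 0.17 with Arrdc3 for the other 6 lists. The part of any of these cells in the relation of the 2 genes was not tested.

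**Figure D3:**
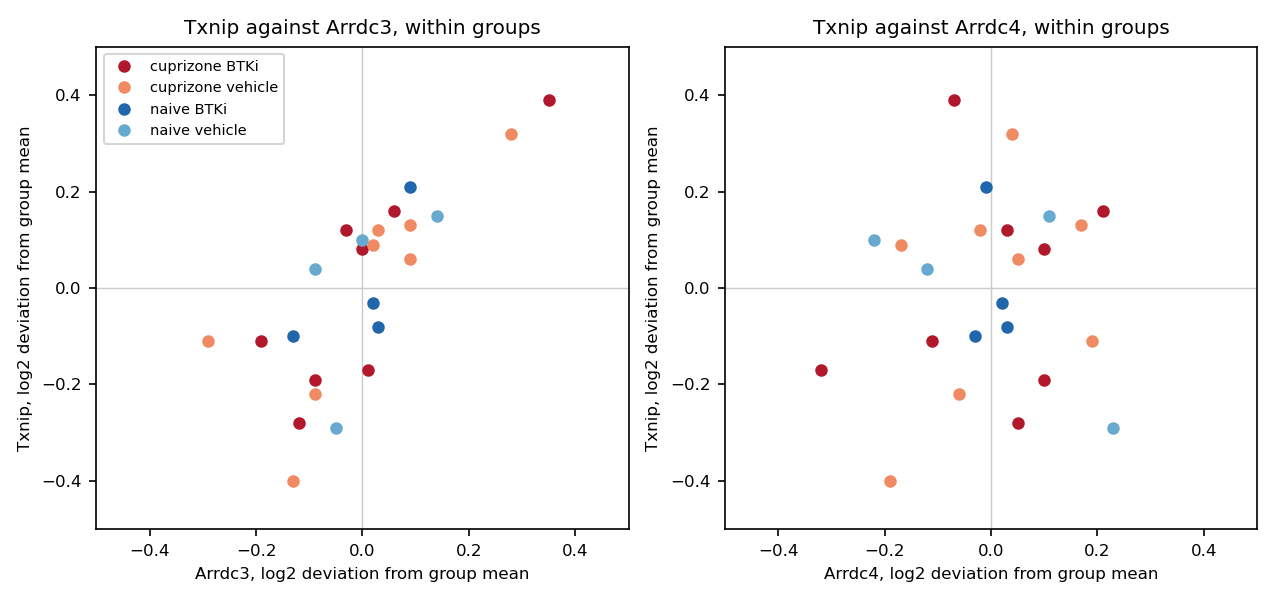
Deviation of Txnip from its group mean (y axis) against that of Arrdc3 (left) or Arrdc4 (right), on the scale log2(FPKM + 0.5), 1 point for each of the 24 libraries, with the 4 groups in different colours. The points rise along the diagonal for Arrdc3 (r = 0.77) and spread without a trend for Arrdc4 (r = 0.10).

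Promoters are shown for Txnip and Arrdc3, because these genes varied together, and for Arrdc4, because Txnip and it are known to answer to glucose through E-box-like elements. Each is the 250 bases before the RefSeq start (GRCm38.p6), read 5′ to 3′ on the gene's strand: chr3:96557707-96557956 on the plus strand for Txnip, chr13:80883134-80883383 on the plus strand for Arrdc3 (of 3 listed, the one at the annotated gene start) and chr7:68749239-68749488 on the minus strand for Arrdc4, which begins 3 bases from the annotated gene start. Capitals mark the E-box CACGTG, its variant CACGAG, the CCAAT box (CCAAT, or ATTGG on the other strand) and the forkhead core GTAAACA.
Txnip: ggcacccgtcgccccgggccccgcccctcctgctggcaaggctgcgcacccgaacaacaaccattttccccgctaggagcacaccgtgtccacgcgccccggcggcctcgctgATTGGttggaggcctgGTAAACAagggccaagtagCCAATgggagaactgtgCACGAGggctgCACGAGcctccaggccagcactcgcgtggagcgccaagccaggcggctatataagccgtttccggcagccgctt
Arrdc3: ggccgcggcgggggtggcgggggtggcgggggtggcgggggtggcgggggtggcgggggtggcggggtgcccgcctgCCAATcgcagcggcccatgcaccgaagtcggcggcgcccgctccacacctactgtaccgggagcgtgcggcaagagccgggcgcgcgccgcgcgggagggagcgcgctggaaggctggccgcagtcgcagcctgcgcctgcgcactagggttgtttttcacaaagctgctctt
Arrdc4: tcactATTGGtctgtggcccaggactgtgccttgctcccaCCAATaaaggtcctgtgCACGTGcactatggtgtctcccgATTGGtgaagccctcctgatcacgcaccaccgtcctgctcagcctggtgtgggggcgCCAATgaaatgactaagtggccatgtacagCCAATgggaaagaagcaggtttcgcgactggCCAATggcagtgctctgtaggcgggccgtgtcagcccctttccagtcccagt

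The Txnip promoter holds 2 copies of CACGAG with 5 bases between them, 85 to 69 bases before the start. That arrangement, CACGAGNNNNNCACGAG, was searched for after the Txnip promoter had been seen, and 1 of the 32851 promoters in the RefSeq table held it on either strand (0.00304%), which is this one. Paired E-box-like sequences with 5 bases between them are known as carbohydrate response elements, the sites of Mondo and ChREBP factors. The same promoter holds 2 CCAAT boxes and 1 GTAAACA. It also holds 1 ACANNNTGT, a spaced pair of glucocorticoid receptor half-sites that is not in capitals.

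The Arrdc4 promoter holds 1 CACGTG, 193 to 188 bases before the start, and 6 CCAAT boxes. The Arrdc3 promoter, of which 76.0% is G or C, holds 1 CCAAT box and none of the other motifs. The promoters of Arrdc2 and Arrdc1, not printed, hold 3 CCAAT boxes and 1 CACGAG in Arrdc2 and 2 CACGAG in Arrdc1. Over all 32851 promoters of this length, and on either strand, CACGTG was found in 6.02%, CACGAG in 5.37%, CCAAT in 33.8%, GTAAACA in 3.17% and ACANNNTGT in 5.84%, and TGACGTCA, the cyclic AMP response element, was found in 1.55% and in none of the 5. A match is a description of the letters and not of a factor's binding.

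**Figure D4:**
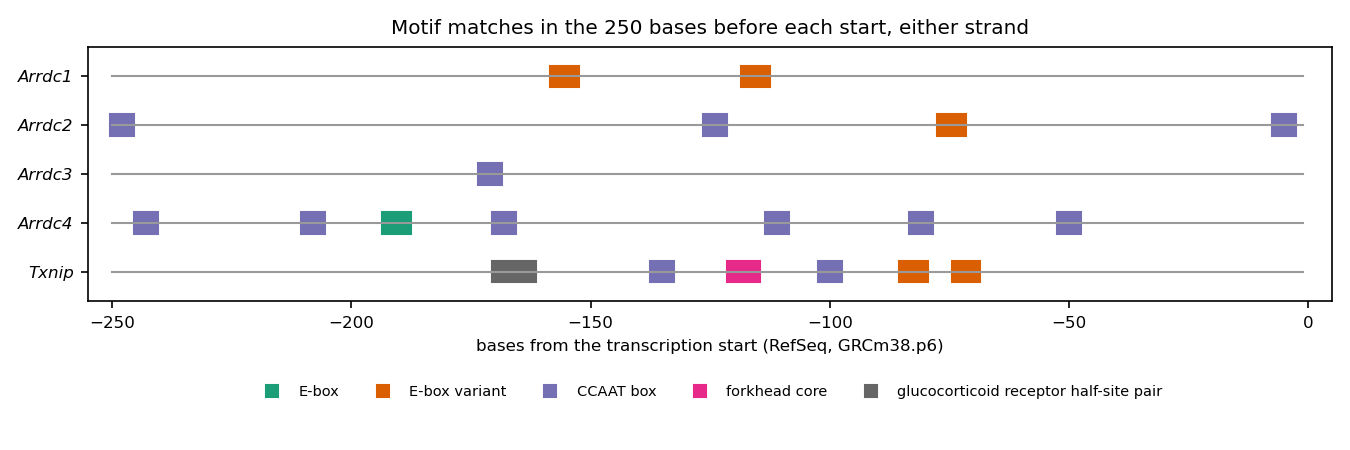
Position of motif matches on either strand (x axis, bases from the RefSeq transcription start) in the 250 bases before the start of each of the 5 genes (rows), with 1 colour per motif. Txnip has 2 adjacent E-box variants 85 to 69 bases before the start, Arrdc4 has 6 CCAAT boxes, and Arrdc3 has 1 match, a CCAAT box.

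Among the factors that read such elements, 2 of 3 rose in cuprizone mice under vehicle, where 10.2% of all genes were called higher. Mlxip (MondoA) rose to 5.64 ± 0.302 FPKM in cuprizone vehicle, against 4.74 ± 0.0741 FPKM in naive vehicle (SD, n = 8 and 4; log2 difference 0.23, limma adjusted p = 0.00245), and Mlxipl (ChREBP) to 2.83 ± 0.930 FPKM, against 1.62 ± 0.330 FPKM (0.62, adjusted p = 0.0132, lost without naive vehicle 4, 0.0607). Under BTKi, Mlxipl rose by 0.72 (adjusted p = 0.00694, lost without naive BTKi 3, 0.0626) and Mlxip differed by 0.15 (adjusted p = 0.075). Their partner Mlx differed by 0.05 under vehicle and -0.07 under BTKi (adjusted p = 0.712 and 0.704). BTKi against vehicle called none of the 3 in cuprizone or naive mice, where 0.177% and 0.217% of all genes were called.

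Of 11 genes of the thioredoxin system, the binding partner of Txnip and its reductases and peroxiredoxins, 0 were called in any comparison by limma. Of all genes 0.125% to 15.0% were called in a comparison. Txn1, thioredoxin itself, averaged 27.6 ± 2.20 FPKM in cuprizone vehicle and 27.2 ± 1.87 FPKM in naive vehicle (log2 difference 0.02, limma adjusted p = 0.854). Of 20 measured genes of glucose uptake and glycolysis, 4 rose under vehicle (10.2% of all genes were called higher) and 2 under BTKi (6.11% of all genes). Hk2, an inducible hexokinase, rose by 0.93 under vehicle and by 0.76 under BTKi (limma adjusted p = 2.96e-05 and 0.000504). The 3 others under vehicle were Pfkfb3, which makes the activator of phosphofructokinase, Aldoc, the astrocyte aldolase, and Hk1, with 0.30, 0.24 and 0.11. The call of Hk1 was lost in 7 of the 24 fits without 1 library, and that of Aldoc without the 4 libraries that stand apart (adjusted p = 0.158). Slc2a1, the transporter that Txnip removes from the surface, differed by 0.14 under vehicle, 0.18 under BTKi and 0.18 for BTKi in cuprizone mice (limma adjusted p = 0.144, 0.0764 and 0.203).

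Txnip is also known to bind Nlrp3, the sensor of the inflammasome. Nlrp3 averaged 0.36 FPKM and was below the filter. Of the 4 measured inflammasome genes, 3 rose under vehicle, where 10.2% of all genes were called higher: the adaptor Pycard by 1.02, the protease Casp1 by 0.65 and the pore-forming Gsdmd by 0.77 (limma adjusted p = 0.0127, 0.0051 and 0.00106), with the call of Pycard lost without naive vehicle 2 (0.0548). Gsdmd was the 1 that rose under BTKi, by 0.76 (adjusted p = 0.002; 6.11% of all genes were called higher). In the same comparisons 7 of the 9 microglial markers rose, and the part of these cells was not tested.

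Of 9 NEDD4-family ligases, the partners of the PPxY motifs, 1 was called in any comparison. Smurf1 rose by 0.14 under vehicle (limma adjusted p = 0.0211), where 15.0% of all genes were called and 10.2% called higher. Nedd4, Nedd4l and Itch differed by -0.02, -0.07 and -0.14 there (adjusted p = 0.782, 0.377 and 0.0802). Of 9 ESCRT partners of Arrdc1, 1 was called under vehicle, against the same shares of all genes, and none elsewhere. Vps37b rose by 0.25 (limma adjusted p = 0.00112) and Tsg101 differed by 0.01 under vehicle (adjusted p = 0.958). Among the other arrestins, Arrb2 (beta-arrestin 2) rose by 0.22 under BTKi (limma adjusted p = 0.0183, lost without naive BTKi 2, 0.0953) and differed by 0.14 under vehicle (adjusted p = 0.121), and Arrb1 was not called. Of 4 measured beta-adrenergic receptors and their kinases, 0 were called in any comparison by limma, where 0.125% to 15.0% of all genes were called.

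Txnip is known to answer to glucocorticoids and FOXO factors in other tissues, so lists of their targets were set beside the members. The lists also hold the glucocorticoid receptor gene Nr3c1 and the factors Foxo1 and Foxo3 themselves. Of the 16 genes on the glucocorticoid list, 5 rose and 1 fell for cuprizone against naive mice under vehicle, where 10.2% of all genes were called higher and 4.82% lower. Under BTKi 5 rose and 2 fell, where 6.11% of all genes were called higher and 1.77% lower. Cdkn1a, a cell cycle inhibitor that p53 induces too, rose by 1.17 under vehicle (limma adjusted p = 9.76e-06), Per1, a clock gene, by 0.43 (7.41e-05) and Klf15, a metabolic transcription factor, by 0.45 (0.000196). Fkbp5, a chaperone of the glucocorticoid receptor, rose by 0.30 (0.00273), and Tsc22d3 (GILZ) fell by 0.22 (0.0499, lost in 18 of the 24 fits without 1 library). Under BTKi Cdkn1a rose by 0.91 and Zbtb16, a zinc finger transcription factor, by 0.34, and Dusp1, a MAP kinase phosphatase, fell by 0.47 (adjusted p = 0.000344, 0.00388 and 0.00847). Per1, which had risen under vehicle, fell by 0.24 under BTKi (adjusted p = 0.0296, lost in 4 of the 24 fits without 1 library), and the difference of its BTKi effects was called (-0.67, adjusted p = 0.00187). In cuprizone mice BTKi against vehicle called 4 of the 16 (0.177% of all genes), with Zbtb16 and Map3k6 at 0.41 and 0.43 and Dusp1 and Per1 at -0.59 and -0.27 (adjusted p = 0.00096, 0.0411, 0.00161 and 0.0474, the last lost in 15 of the 24 fits). In naive mice given BTKi, where Arrdc3 fell, Per1 was the 1 gene of this list that was called, higher by 0.40 (adjusted p = 0.0332, lost in 6 of the 24 fits). Of the 10 genes on the FOXO list, Bcl6 rose by 0.34 and Foxo3 by 0.22 under vehicle (limma adjusted p = 5.22e-05 and 0.00173), and Bcl6 by 0.25 under BTKi (0.00227). Of all genes 10.2% and 6.11% were called higher there. For BTKi against vehicle 0 of the 10 were called in cuprizone or naive mice, where 0.177% and 0.217% of all genes were called.

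Of 12 immediate early genes, known for their fast response to stimulation, 2 fell for cuprizone against naive mice under vehicle, Btg2 and Npas4, and 5 fell under BTKi, among them Nr4a1 by 0.84, Arc by 0.87 and Junb by 0.63 (4.82% and 1.77% of all genes were called lower). BTKi against vehicle called 7 of the 12 lower in cuprizone mice, with a median of -0.55 over the list, and 1 lower in naive mice, with a median of -0.06 (0.177% and 0.217% of all genes were called). The 3 with the smallest p in cuprizone mice were Nr4a1, Junb and Arc, at -0.96, -0.86 and -0.98 (limma adjusted p = 2.4e-08, 6.13e-07 and 4.9e-06), and in naive mice these were at -0.06, -0.16 and 0.05 (adjusted p = 0.846, 0.578 and 0.917). The 1 called in naive mice was Btg2, an antiproliferative gene, which was singled out after its values were seen. It averaged 5.30 ± 0.137 FPKM in naive BTKi and 12.4 ± 1.55 FPKM in naive vehicle (SD, n = 4 each), and fell by 1.15 (SE 0.09, limma adjusted p = 1.09e-07). It fell under vehicle too, by 0.82, to 6.80 ± 0.782 FPKM in cuprizone mice (adjusted p = 1.37e-07). Unlike Arrdc3 it was also called for BTKi in cuprizone mice, where it fell by 0.43 (adjusted p = 0.00154), and for the difference of the BTKi effects (0.72, adjusted p = 0.00543).

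The median difference of each list for cuprizone against naive mice can be set beside that of all tested genes, 0.03 under vehicle and 0.02 under BTKi. Under vehicle it was 0.71 for the inflammasome genes, 0.23 for the Mondo factors, 0.14 for the beta-adrenergic receptors and kinases, 0.11 for the glucocorticoid-induced genes and for the other arrestins, 0.07 for the immediate early genes and 0.06 for the ESCRT partners. The remaining lists under vehicle were glucose uptake and glycolysis at 0.05, the thioredoxin system at 0.02, the FOXO targets at 0.01 and the NEDD4-family ligases at -0.02. Under BTKi it was 0.38 for the inflammasome genes, 0.15 for the Mondo factors, 0.08 for the FOXO targets, 0.05 for the other arrestins and 0.04 for the beta-adrenergic list. The remaining lists under BTKi were the glucocorticoid-induced genes and the ESCRT partners at 0.03, the NEDD4-family ligases at 0.02, the thioredoxin system at 0.00, glucose uptake and glycolysis at -0.02 and the immediate early genes at -0.39.

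Genes other than the 5 members were also ranked by how closely they followed each member over the 24 libraries. Group means were subtracted, and the ranking was by Pearson r with no test. Of these genes, Zfp687 (0.79), Sorbs3, Erbin and Pls1 (0.76 each) came nearest to Arrdc3, whose r with the member Txnip was 0.77. Dusp16 (0.83), Fgfr2 (0.81) and Snx33, Ficd and Sorbs3 (0.80 each) came nearest to Txnip, so that Sorbs3 stood among the 5 nearest genes of both. Bcas1, a gene of myelin-forming oligodendrocytes, came nearest to Arrdc2 (0.79), Actb to Arrdc4 (0.80) and Pias3 to Arrdc1 (0.75).

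GENCODE M21 lists a gene on the opposite strand over 2 of the members, and reads of a gene and its antisense partner cannot be told apart without strand. The library kit marks strand, but no source used here states the setting used in counting. Gm15441 covers all 3927 bases of Txnip and reached at most 0.249 FPKM in any library, and 1700023H06Rik shares 1301 bases with Arrdc3 and reached at most 0.0958 FPKM. Txnip and Arrdc3 were at 6.36 FPKM or more in every library, so their values are given as the authors counted them, with that limit.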

How the data were processed

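Total RNA was purified with an RNeasy Micro kit and made into TruSeq stranded mRNA libraries, per the labels' protocols. The authors deposited FPKM values for 54446 versioned Ensembl genes in 24 libraries. No aligner, counter, build or annotation was given in the sources used here. FPKM is relative to the library's total, so it also moves with the other genes of a library. Total FPKM ran from 462521 to 496350. GENCODE M21 (GRCm38) holds 53229 of the IDs at the same version, and 54409 had a symbol. Depth was estimated from the spacing of low values in 3443 genes with 1 annotated transcript, and only the number of fragments limits the precision of a low value.

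Genes averaging at least 0.5 FPKM (15216) were tested on the log2 scale after adding 0.5, in limma 3.58.1 (R 4.3.3; lmFit, contrasts.fit, eBayes with trend), with 4 groups in 1 model and Benjamini-Hochberg adjustment within each of 5 comparisons. SD is on the FPKM scale and SE on the log2 scale. The fit was checked on simulated data. Correlations were tested by permuting libraries within groups, with 100000 permutations, two-sided. Promoters are those of RefSeq (GRCm38.p6). Python 3.11.15, pandas 2.3.3, numpy 2.4.6 and matplotlib 3.10.9 were used.

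The members, the 11 pathway lists, the 11 marker lists and the tests were chosen with earlier results of these data known. Of a pathway list, genes past the threshold were named up to the 3 with the smallest p in a comparison, and 15 genes were always named where measured. Klf15, Map3k6, Per1 and Hk1 are named to help follow small counts, though not every gene behind a count is named. Btg2 and Npas4 were singled out after their values were seen. The alternatives were pseudocounts of 0.1 and 1, no filter, median ratio and quantile scaling, a fit of only the groups compared, the replicate number as a block, each library left out, the 4 libraries that stand apart left out, and the choroid plexus score as a covariate. All 24 libraries entered the main tests.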

Additional observations from a re-analysis of the deposited data

Results flagged for a closer look

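Arrdc3 in cuprizone BTKi 4 stood at 10.53 FPKM, far above the next highest of the 8 libraries of that group (8.53 FPKM). The same library had the highest Txnip (11.62 FPKM), Arrdc2 (6.62 FPKM) and Arrdc1 (7.20 FPKM, the next 7.15 FPKM) of its group, but not the highest Arrdc4 (2.71 FPKM, the highest 3.39 FPKM), and the highest summed oligodendrocyte markers of any cuprizone library (2660 FPKM). Of 20 sets of libraries examined (5 genes in 4 groups), chance flags about 1 in 20. Without this library the BTKi difference of Arrdc3 in cuprizone mice was -0.04 (limma adjusted p = 0.914), against 0.01 with it.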

How the results depend on the processing

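For the 25 values (5 genes in 5 comparisons), 208 of the alternatives other than leaving out 1 library kept direction and side of the threshold, 6 lost a call, 2 gained one and 4 changed sign. These 4 were Arrdc3 for BTKi in cuprizone mice with the choroid plexus covariate (-0.0037), Arrdc4 there after quantile normalization (0.00086), and Arrdc1 for the difference of the BTKi effects with that covariate and without the 4 libraries that stand apart (0.04 each). Without 1 library at a time, 558 of these fits kept both, 24 lost a call, 1 gained one and 17 changed sign. The sign changes were for BTKi in cuprizone mice in Arrdc2 (-0.04 to 0.07), Arrdc3 (-0.04 to 0.05) and Arrdc4 (-0.06 to 0.02), and for the difference of the BTKi effects in Arrdc1 (-0.06 to 0.03). The number of members called for cuprizone BTKi against naive BTKi (2) was 1 without the filter, 3 with the covariate (Txnip too, with Arrdc2 and Arrdc4), 2 without the 4 libraries (Arrdc4 and Txnip, not Arrdc2) and 1 to 2 without 1 library. For naive BTKi against naive vehicle it was 1, but 0 without the 4 libraries and 0 to 1 without 1 library, and for the difference of the BTKi effects it was 0, and 0 to 1 without 1 library. Under vehicle it was 2 to 3 without 1 library. The genes called for BTKi in cuprizone mice (27) were 16 without the filter, 11 without the 4 libraries, 15 with the covariate and 14 to 34 without 1 library. In naive mice (33) they were 21 without the filter, 3 with only the 2 groups fitted, 7 without the 4 libraries and 7 to 41 without 1 library. For the difference of the BTKi effects (19) they were 8 without the 4 libraries, 12 with the covariate and 8 to 23 without 1 library. For cuprizone against naive mice, leaving out 1 library gave 1825 to 2392 genes under vehicle (2288) and 860 to 1294 under BTKi (1198). The share of higher calls moved by scaling also for BTKi: in naive mice from 48.5% to 59.0% (median ratio) and 75.9% (quantile), and in cuprizone mice from 22.2% to 38.1% (quantile). The cause was not tested for any of these. The replicate numbers did not pair libraries: of 28 same-numbered pairs 8 correlated above 0.1 (range -0.27 to 0.32), and 9 had their own number as the best match. With the replicate number as a block, 9 genes were called for the difference of the BTKi effects and 1 member for cuprizone BTKi against naive BTKi, where Arrdc2 differed by -0.26 (adjusted p = 0.239). Depth limits Arrdc4 most, at 230 to 427 fragments per library.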
